A study of Salmo salar with 57 samples.

Results

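Gene expression was compared between salmon fed soybean meal together with the microalga Chlorella vulgaris and salmon fed soybean meal without it. The comparison rests on 17 of the 57 arrays of the series, 10 from fish of the CV diet and 7 from fish of the SBM diet, chosen by the group letter in the labels (F for CV, B for SBM). A further 10 arrays from fish fed the fish meal (FM) diet gave the level without soybean meal. Each array held RNA from the distal intestine of 1 post smolt Atlantic salmon (Salmo salar) kept in seawater and fed its diet for 4 weeks. The letters were tied to diets through histology scores per fish. The soybean inclusion was the same in SBM and CV, but the alga took the place of further fish meal, so adding the alga and lowering the fish meal cannot be told apart. Soybean meal itself took the place of fish meal, so against FM, adding soybean meal and lowering fish meal cannot be told apart either. Effects of soybean meal named below are those of the SBM diet as a whole. The authors excluded all fish of 1 SBM tank as outliers, because their histology differed from the other SBM tanks and from earlier experiments. The SBM fish were thus in part selected by histology, which limits every comparison with SBM. Tanks are not named in the labels, so fish were treated as independent, and p-values measure the spread between fish only.

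The distal intestine of salmon takes up proteins and other macromolecules from the lumen into large vacuoles of the enterocytes, where lysosomal enzymes break them down. Soybean meal is known to cause an inflammation there in which the folds shorten, the vacuoles disappear and the lamina propria fills with leucocytes. Enterocytes of this segment also carry brush border enzymes, transporters and detoxifying enzymes. In such bulk tissue, fewer cells of a type and less RNA per cell cannot be told apart.

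The histology scores that came with the labels, summed over lamina propria, epithelium, atrophy and oedema, were 0 in all 10 FM fish, between 6 and 8 in the SBM fish, and 0 in 8 of 10 CV fish. CV fish 4 had a sum of 1 and CV fish 7 a sum of 7. These scores served to set the letters to diets and were therefore not tested. CV fish 7 is marked in the plots of single fish and is given by name where its value stands apart.

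Of 12065 probes tested, 1297 were differentially expressed (DE) between CV and SBM (10.8%), 967 higher in CV (8.01%) and 330 lower (2.74%). A probe was called DE when the Benjamini-Hochberg adjusted p from limma was under 0.05 and the log2 fold change (FC) at least 0.4 in size. Adjusted p-values given for single probes are those of this contrast. Among the 2328 probes with a gene name, 688 were called (29.6%), 475 higher (20.4%) and 213 lower (9.15%). The names come from the study's own tables of probes it found changed against FM in these fish, so a gene list made from them holds more calls than the array as a whole. The share of calls that were higher in CV depended on the scaling of the arrays. It was 74.6% after quantile normalization, 62.2% with arrays scaled to their 75th percentile, 56.0% in the values that the authors deposited and 53.1% when each diet was centred on its overall median log2 FC. The median log2 FC of all probes was 0.08 between CV and SBM, 0.09 between SBM and FM and 0.17 between CV and FM, and with scaling to the 75th percentile it was 0.04, −0.08 and −0.02.

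The SBM diet differed from FM in 2690 probes (22.3%), 1650 higher (13.7%) and 1040 lower (8.62%). Among the probes with a gene name 1566 of 2328 were called (67.3%), 958 higher (41.2%) and 608 lower (26.1%). None of the 10 FM arrays shared a slide column with an SBM array, so diet and slide column cannot be told apart between SBM and FM. All 7 SBM and 9 of 10 CV arrays lay in 1 column, which held no FM array. Diet and slide column can thus hardly be told apart between CV and FM either, which also limits the kept class. Each of the 2690 probes was placed by its calls in CV. Of these, 1005 (37.4%) moved back, that is, they were DE in the opposite direction between CV and SBM. Of those that moved back, 882 were not DE between CV and FM, 113 had moved part of the way and 10 had passed the FM level. A probe without a call against FM is not thereby at the FM level, since the 95% interval of CV minus FM lay within 0.4 of 0 for 281 of the 882 (31.9%). A further 570 kept the soybean effect, being DE against FM in the same direction as in SBM and not DE between CV and SBM. The remaining 1115 were DE only between SBM and FM and could not be placed, and no probe moved further from FM in CV. Both comparisons use the same 7 SBM fish, so a deviation of those fish alone would move the values of a probe in opposite directions, and the counts are given as a description.

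Of the probes lowered by soybean meal, 682 of 1040 moved back (65.6%), and of those raised, 323 of 1650 (19.6%). The size of this difference depended on how the arrays were scaled. With each diet centred it was gone, at 45.2% of the lowered against 45.8% of the raised. It shrank to 46.6% against 41.1% with scaling to the 75th percentile, and to 54.9% against 34.3% in the deposited values. With normexp background correction it stayed wide. Only centring removed it among the other ways of scaling and filtering tried. The count that moved back in either direction was steadier, with 1064 probes when centred, 1335 with the 75th percentile and 1148 in the deposited values. Of the 1005 probes, 602 moved back under quantile normalization and under all 6 other ways of scaling and filtering tried, 376 of them lowered and 226 raised by soybean meal. The kept class was less steady, with 261, 276 and 309 probes, and only 130, 153 and 263 of the 570 remained in it.

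**Figure D1:**
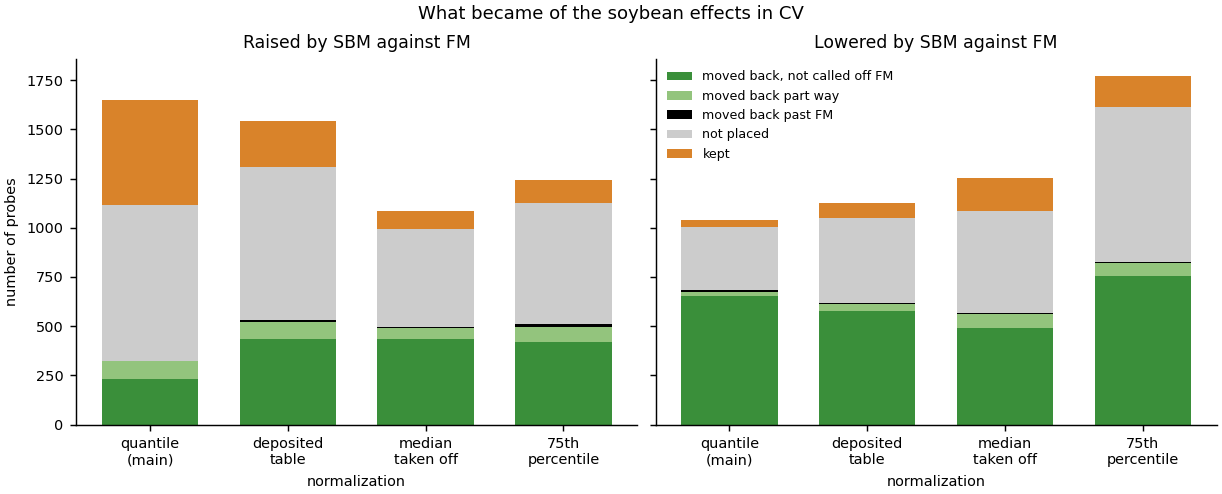
Number of probes (vertical axis) that soybean meal raised (left) or lowered (right) against FM, split by what became of them in CV, for 4 ways of scaling the arrays (horizontal axis). After quantile normalization 682 of 1040 lowered and 323 of 1650 raised probes moved back, while the other scalings shown give more equal shares for both directions.

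Brush border enzymes and transporters of enterocytes were among the largest rises in CV over SBM. S26A6 (solute carrier family 26 member 6), an anion exchanger of the apical membrane, had log2 intensities between 4.81 and 6.42 in SBM (median 6.02), between 7.59 and 8.68 in CV (median 8.12) and between 7.39 and 9.0 in FM (median 8.57). All 10 CV fish lay above every SBM fish and within the range of the FM fish. The difference of 2.21 (SE 0.25), or 4.62-fold, was DE with a limma adjusted p of 4.7e-08.

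Angiotensin-converting enzyme (ACE), a peptidase of the brush border, ranged from 12.25 to 13.71 in SBM (median 12.65) and from 13.80 to 15.77 in CV (median 14.76). All 10 CV fish were above the SBM fish, and 5 of them were below every FM fish, which ranged from 14.80 to 15.46. The log2 FC over SBM was 2.04 (SE 0.29, limma adjusted p = 1.7e-06). For the metalloprotease meprin A subunit beta (MEP1B) the lowest, median and highest values were 4.14, 4.33 and 5.51 in SBM, and 5.65, 6.37 and 6.81 in CV. Again no CV fish overlapped with SBM, and 9 of 10 lay within the FM range, with a log2 FC of 1.59 (SE 0.22).

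Of 26 probes of enterocyte markers, 15 rose and 2 fell in CV against SBM, with a median log2 FC of 0.80 against 0.08 over all probes. In SBM against FM 19 had been lowered and 2 raised, and none of the 26 was DE between CV and FM. Maltase-glucoamylase (MGA), which digests starch, rose by 1.58 (SE 0.31), the neutral amino acid transporter S6A19 by 1.23 (SE 0.31) and the intestinal fatty acid-binding protein FABPI by 0.99 (SE 0.32). The call of FABPI was lost without any of 5 single fish, SBM fish 2, 3 or 4 or CV fish 1 or 8. The citrate cycle acid transporter S13A2 rose by 2.30 (SE 0.56) and the lysosomal peptide transporter S15A4 by 1.38 (SE 0.25). CD36, which binds long-chain fatty acids, rose by 2.55 (SE 0.61), and apolipoprotein A-IV (APOA4), a component of chylomicrons, by 1.85 (SE 0.50). Both were lowest in CV fish 7 within the CV group, at 6.70 and 14.57.

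The other 2 called enterocyte probes went the other way. Enteropeptidase (ENTK), which activates trypsinogen, ranged from 8.20 to 10.09 in SBM (median 8.65), from 6.09 to 8.39 in CV (median 6.73) and from 5.35 to 7.72 in FM (median 5.98). It was lower in 9 of 10 CV fish than in any SBM fish, with a log2 FC of −2.05 (SE 0.38, limma adjusted p = 0.00013). The liver-type fatty acid-binding protein FABPL fell by 1.09 (SE 0.35), a call that was lost without any of 4 single fish, SBM fish 1 or 5 or CV fish 1 or 9. Liver-type and intestinal fatty acid-binding proteins thus moved in opposite directions in both comparisons, with 1.1 and −1.32 in SBM against FM.

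**Figure D2:**
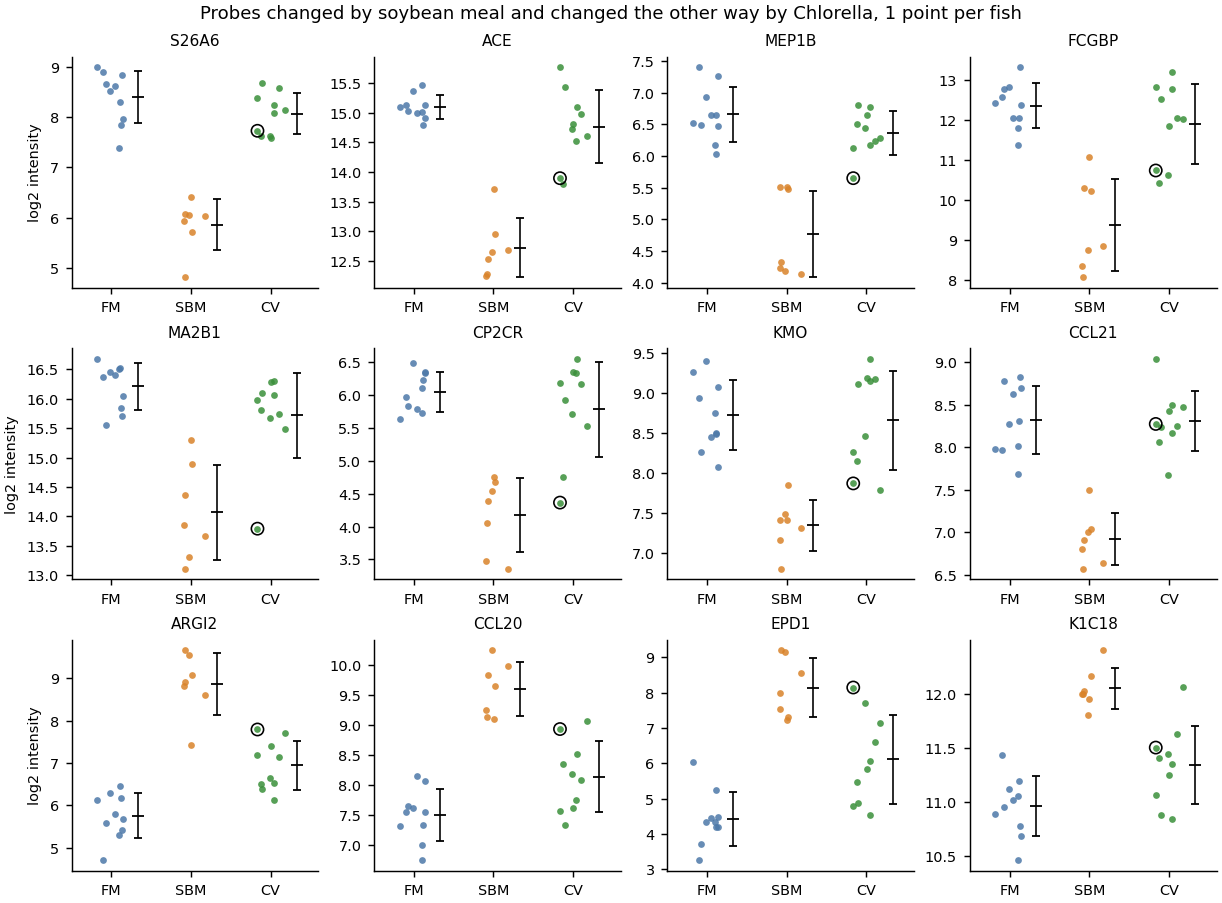
Log2 intensity (vertical axis) of 12 probes in single fish of the FM, SBM and CV diets (horizontal axis), with mean and SD beside the points and CV fish 7 circled. S26A6, ACE, MEP1B, FCGBP, MA2B1, CP2CR, KMO and CCL21 were lower in SBM and higher in CV, and ARGI2, CCL20, EPD1 and K1C18 higher in SBM and lower in CV. For S26A6 all 10 CV fish lay within the FM range, while for ARGI2 8 of 10 stayed above it.

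The enzymes of the lysosome formed the list with the most calls. Of 50 probes, 37 rose and none fell between SBM and CV, with a median log2 FC of 0.70, and between 31 and 35 rose under the 6 other ways of scaling and filtering. Of these 50, 39 had been lowered by soybean meal and 35 moved back. Lysosomal alpha-mannosidase (MA2B1), which trims mannose from glycoproteins, had values from 13.11 to 15.29 in SBM (median 13.85), from 13.79 to 16.30 in CV (median 15.89) and from 15.55 to 16.68 in FM (median 16.39). CV fish 7, at 13.79, was the only CV fish within the SBM range. The log2 FC was 1.65 (SE 0.32). Beta-galactosidase (BGAL) rose by 1.39 (SE 0.26), the carboxypeptidase lysosomal protective protein (PPGB) by 1.25 (SE 0.19) and the ganglioside GM2 activator (SAP3) by 1.18 (SE 0.24). Each of these was lowest in CV fish 7 among the CV fish.

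Exceptions in this list were few. Tartrate-resistant acid phosphatase (PPA5) was not DE between SBM and FM and was higher in CV than in both, by 1.01 (SE 0.26) over SBM and 0.70 (SE 0.23) over FM, although 5 of 10 CV fish lay within the FM range. The cholesterol exporter of the lysosome NPC1 and the nuclease DNS2A were raised by soybean meal and stayed above FM in CV, with 0.46 and 0.50. Of the 50 lysosomal probes 4 were DE above FM in CV under quantile normalization. The count was 0 to 2 under the other ways of scaling and filtering, with 0 for scaling to the 75th percentile. The calls of PPA5, NPC1 and DNS2A against FM thus depended on the scaling.

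The genes of detoxification moved in the same direction. Of 46 probes of xenobiotic metabolism 26 rose and 3 fell in CV against SBM, with a median of 0.56, and 28 moved back. The cytochrome P450 CP2CR had values from 3.36 to 4.76 in SBM (median 4.39), from 4.36 to 6.56 in CV (median 6.05) and from 5.63 to 6.48 in FM (median 6.04). The groups overlapped only through 2 CV fish, of which CV fish 7 was the lowest at 4.36, and the log2 FC was 1.61 (SE 0.31). The flavin monooxygenase FMO5 rose by 1.27 (SE 0.32), the arylamine N-acetyltransferase ARY1 by 1.1 (SE 0.23) and the glutathione S-transferase GSTP1 by 1.02 (SE 0.18). Among the members that fell were the cytochromes P450 CP2J2 (−1.0) and CP2J6 (−0.94), both of which soybean meal had raised. CP2J2 stayed DE above FM in CV, with 0.73.

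Tryptophan and peroxisomal metabolism followed. Of 22 probes of tryptophan metabolism 13 rose and 2 fell, and 14 moved back. Kynurenine 3-monooxygenase (KMO), an enzyme of the kynurenine pathway, ranged from 6.80 to 7.84 in SBM (median 7.41) and from 7.78 to 9.42 in CV (median 8.78), and 9 of 10 CV fish were above every SBM fish. The log2 FC was 1.31 (SE 0.21), and a further KMO probe was DE in the same direction. Glutaryl-CoA dehydrogenase (GCDH) rose by 1.12 (SE 0.23). For indoleamine 2,3-dioxygenase 2 (I23O2), which opens the indole ring, the log2 FC of 1.04 (SE 0.34) was DE, but the call was lost without any of 8 single fish. Of 34 probes for peroxisomes and fatty acid oxidation 13 rose and 2 fell. Among them, catalase (CATA) rose by 1.29 (SE 0.23), hydroxyacid oxidase HAOX2 by 1.35 (SE 0.20) and D-amino-acid oxidase OXDA by 1.23 (SE 0.17). The electron transfer flavoprotein subunit ETFA moved back part of the way only, from −2.14 in SBM to −1.09 in CV against FM.

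Heme, iron, retinoid and sterol genes gave shorter lists. Heme oxygenase (HMOX), which opens the heme ring, rose by 1.48 (SE 0.30) and the ferritin subunit FRIM by 0.76 (SE 0.13), with 5 of 14 probes of heme and iron higher and none lower in CV than SBM. Retinol dehydrogenase RDH8 rose by 1.44 (SE 0.20) and retinol-binding protein RET1 fell by 1.01 (SE 0.20). The sterol exporter subunit ABCG5 rose by 1.01 (SE 0.17), with all 10 CV fish above the SBM fish. PPARG, a nuclear receptor for fatty acids, had values from 11.10 to 11.62 in SBM (median 11.42), from 12.02 to 13.09 in CV (median 12.65) and from 12.25 to 13.07 in FM (median 12.87). No CV fish overlapped with SBM, and the log2 FC was 1.18 (SE 0.15, limma adjusted p = 3.5e-07).

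**Figure D3:**
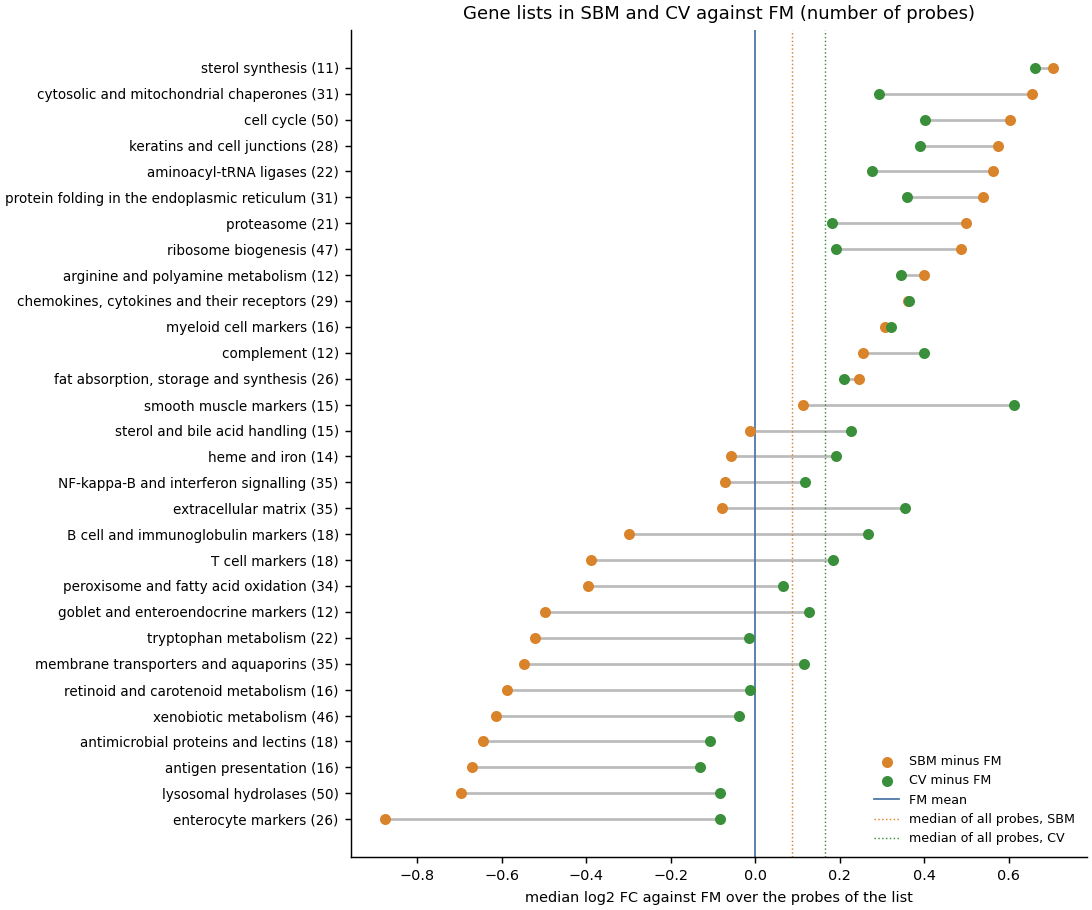
Median log2 FC against FM (horizontal axis) over the probes of each gene list (vertical axis, number of probes in brackets), in SBM and in CV. Dotted lines give the median of all 12065 probes, 0.09 in SBM and 0.17 in CV. Lists that lay below FM in SBM, such as lysosomal hydrolases, lay near the median of all probes or FM in CV, while sterol synthesis had nearly the same median in both diets.

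Among genes of mucus and hormone cells, 6 of 12 rose and none fell. The mucus protein FCGBP (IgGFc-binding protein) ranged from 8.07 to 11.08 in SBM (median 8.86), from 10.43 to 13.20 in CV (median 12.03) and from 11.36 to 13.32 in FM (median 12.40). Of 10 CV fish 7 were above every SBM fish, and the log2 FC was 2.52 (SE 0.50), or 5.73-fold. Protachykinin (TKN1), a gut peptide precursor, rose by 0.87 (SE 0.17) and glucagon (GLUC1) by 0.81 (SE 0.25). The call of GLUC1 was lost without SBM fish 2 or CV fish 9.

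Olfactomedin-4 (OLFM4), a secreted glycoprotein that marks crypt cells in human intestine, was in the kept class. It ranged up to 14.06 in FM (median 13.18), from 9.75 to 11.01 in SBM (median 10.22) and from 7.28 to 12.59 in CV (median 11.10). The log2 FC against FM was −2.67 in SBM and −2.24 (SE 0.37) in CV, and 8 of 10 CV fish lay below every FM fish. The difference between CV and SBM was 0.43 (SE 0.41), which was not DE. The lowest CV value, 7.28, was that of CV fish 3. The missing call does not show that OLFM4 was the same in CV and SBM. The lectins intelectin-1a (ITL1A) and intelectin-like protein (INTLP) were also in the kept class, with −0.72 (SE 0.24) and −0.63 (SE 0.20) in CV against FM. ITL1A ranged from 10.07 to 10.75 in SBM, from 9.73 to 11.98 in CV and from 11.21 to 12.27 in FM. For INTLP the ranges were 13.7 to 14.3, 13.3 to 14.9 and 14.1 to 15.3. Neither was DE between CV and SBM, which does not show that they were the same in both. The call of ITL1A in CV was lost without any of CV fish 5, 8, 9 or 10, with slide as a block and with CV and SBM arrays of the same slide column only, and that of INTLP without CV fish 5 or 9. The largest fall in the kept class was that of NST1, annotated as an uncharacterized protein, with −3.61 in SBM and −2.44 (SE 0.43) in CV against FM.

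Immune genes moved in both directions. The chemokine CCL20, which attracts cells with the receptor CCR6, was raised by soybean meal, with values from 9.10 to 10.24 in SBM (median 9.64), from 7.33 to 9.07 in CV (median 8.14) and from 6.75 to 8.15 in FM (median 7.55). All 10 CV fish lay below the SBM fish, and 5 of 10 above every FM fish, with a log2 FC of −1.45 (SE 0.26, limma adjusted p = 9.7e-05) between CV and SBM. A second CCL20 probe fell as well (−1.56), while the remaining one was lower in SBM than FM and was not DE between CV and SBM (0.27). The chemokine CCL21, which guides T cells and dendritic cells, rose by 1.39 (SE 0.20), from 6.57 to 7.5 in SBM to 7.68 to 9.04 in CV, and its 3 probes all rose. CCL25, a gut-homing signal for T cells, rose by 0.86 (SE 0.17), and all 10 CV fish were above the SBM fish. CCL4 was kept above FM, with 1.04 (SE 0.32) in CV and 1.60 in SBM, but this call in CV was lost under each of 6 other ways of scaling and filtering. Of 29 probes for chemokines, cytokines and their receptors 5 rose and 2 fell between SBM and CV.

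Of 16 probes of antigen presentation 8 rose and none fell, and 12 had been lowered by soybean meal. Their median log2 FC between CV and SBM was 0.495. Within scan day 1 it was 0.21 and 0 rose, and within day 2 it was 0.74 and 5 rose, with fewer fish in each. HMR1, a class I-related molecule, rose by 1.45 (SE 0.29) and the class II chain HB23 by 0.71 (SE 0.21), with 7 and 9 of 10 CV fish above every SBM fish. Of 18 probes of T cell markers 10 rose and none fell, among them integrin alpha-E (ITAE, 0.65, SE 0.14) and receptor chains such as TVA1 (0.74, SE 0.21). Under the other ways of scaling and filtering between 1 and 10 T cell probes rose, the lowest count with normexp background correction. Of 18 probes of antimicrobial proteins and lectins 3 rose and none fell. In SBM against FM 11 of the 18 had been lowered, while 3 moved back in CV and 6 were in the kept class. Lysozyme g (LYG) rose by 0.75 (SE 0.14) and the lectin LECH by 1.56 (SE 0.22). Of 18 B cell and immunoglobulin probes 2 rose and 1 fell, and of 16 myeloid probes 1 rose and none fell. The kinase RIPK3, which acts in necroptosis, fell by 0.81 (SE 0.22), with all 10 CV fish below the SBM fish. Of 35 probes of NF-kappa-B and interferon signalling 4 rose and 2 fell. The antimicrobial, B cell, myeloid, NF-kappa-B and chemokine lists each had a smaller share of rises than the 20.4% of all named probes.

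Several of the strongest soybean responses were reduced in CV but not to the FM level. Arginase-2 (ARGI2), which splits arginine into ornithine and urea, ranged from 7.42 to 9.66 in SBM (median 8.91), from 6.13 to 7.79 in CV (median 6.90) and from 4.69 to 6.45 in FM (median 5.74). Of 10 CV fish 8 lay below every SBM fish and 8 above every FM fish. The log2 FC was −1.92 (SE 0.35) between CV and SBM and 1.20 (SE 0.32) between CV and FM. Ependymin-1 (EPD1), a secreted glycoprotein first described in fish brain, fell by 2.02 (SE 0.45) against SBM and stayed 1.69 (SE 0.41) above FM, with 5 of 10 CV fish above every FM fish. CV fish 7 was the highest CV fish for both genes. For Ssa_S47729315, a probe without a gene name, the values were 5.80 to 6.92 in FM, 10.45 to 11.58 in SBM and 6.76 to 9.30 in CV. No CV fish overlapped with SBM and 9 of 10 were above every FM fish, with a log2 FC of −3.10 (SE 0.45) against SBM and 1.72 (SE 0.41) against FM.

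Genes of protein synthesis, folding and breakdown, most of which soybean meal raised, had medians between FM and SBM in CV, with few single calls between CV and SBM. The medians of CV minus FM were 0.29 for chaperones, 0.18 for the proteasome, 0.28 for aminoacyl-tRNA ligases and 0.19 for ribosome biogenesis. Over all probes the median was 0.17, and over probes with a gene name 0.24. With each diet centred the 4 lists gave 0.13, 0.02, 0.11 and 0.03, so their distance from FM depends on the scaling. Protein folding in the endoplasmic reticulum, a further list, had a median of 0.36 in CV against FM, and 0.19 with each diet centred. Of its 31 probes 21 had been raised and 2 lowered in SBM. In CV 12 were DE above FM, and 4 to 12 under the other ways of scaling and filtering. Between SBM and CV 3 of them fell and 2 rose. Of 31 probes of cytosolic and mitochondrial chaperones 27 had been raised by soybean meal, and 7 fell and none rose between SBM and CV, with a median log2 FC of −0.33. Heat shock cognate HSP7C fell by 0.57 (SE 0.16) and stayed 0.65 (SE 0.14) above FM, and the chaperonin subunit TCPG fell by 0.60 (SE 0.12). Of 21 proteasome probes 5 fell and none rose, with a median of −0.30, for example the ATPase PRS10 (−0.44, SE 0.10), for which no CV fish overlapped with SBM. Of 22 probes of aminoacyl-tRNA ligases 3 fell and 1 rose, and of 47 probes of ribosome biogenesis 2 fell and 2 rose, with medians of −0.31 and −0.28. Among the ligases, that for arginine (SYRC) fell by 0.47 (SE 0.09). The number of ribosome biogenesis probes that fell lay between 2 and 12 over the other ways of scaling and filtering. Under quantile normalization their share was smaller than the 9.15% of all named probes that were lower.

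Of 50 cell cycle probes 33 had been raised by soybean meal, 8 fell and 1 rose between SBM and CV, and 16 were DE above FM in CV. Cyclin-B1 (CCNB1) fell by 0.48 (SE 0.15) and was not DE against FM, whereas the sister chromatid cohesion protein DCC1 fell by 0.54 (SE 0.16) and remained 0.44 above FM. The call of CCNB1 was lost without SBM fish 4 or CV fish 4. The count of cell cycle probes above FM in CV was 0 to 6 over the 6 other ways of scaling and filtering, so whether this list stays above FM depends on the scaling. Keratin 18 (K1C18), an intermediate filament of simple epithelia, fell by 0.71 (SE 0.14), with 9 of 10 CV fish below every SBM fish. Periplakin (PEPL), a cornified envelope protein, fell part of the way, from 1.49 in SBM to 0.87 (SE 0.19) in CV against FM. Its call against SBM was lost without any of 7 single fish.

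Sterol synthesis was a list in which differences from FM were alike in SBM and CV. For differences that both diets share against FM, diet and slide column can hardly be told apart. Both diets also held less fish meal than FM, which cannot be told apart from their soybean meal. Of its 11 probes 9 were DE above FM in SBM and 9 in CV, with medians of 0.71 and 0.66, and 7 were in the kept class. None was DE between CV and SBM, where the median was −0.04. Squalene monooxygenase (ERG1), which makes the epoxide that is closed to the sterol rings, ranged from 6.19 to 7.34 in FM (median 6.80), from 7.25 to 8.32 in SBM (median 7.94) and from 7.25 to 8.36 in CV (median 7.84). Of 10 CV fish 9 lay above every FM fish and 9 within the SBM range. The log2 FC of CV was 0.94 (SE 0.18) against FM and 0.02 (SE 0.20) against SBM. The HMG-CoA synthase HMCS1, an early step of the pathway, stayed 0.83 (SE 0.22) above FM, mevalonate kinase KIME 0.91 (SE 0.21), the isomerase IDI1 0.72 (SE 0.21) and the sterol reductase ERG24 0.63 (SE 0.15). Under the other ways of scaling and filtering between 4 and 9 of the 11 probes were above FM in CV and at most 1 was DE between CV and SBM.

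Other kept genes were spread over many functions. The transcription factor FOXA1, a regulator of endoderm genes, was 2.76 above FM in SBM and 1.61 (SE 0.43) in CV. The protease calpain-2 (CAN2) was 1.94 and 1.33 (SE 0.21) above FM, and the proton pump subunit VPP2 1.64 and 1.18 (SE 0.19). For CAN2 and VPP2 9 of 10 CV fish lay above every FM fish.

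**Figure D4:**
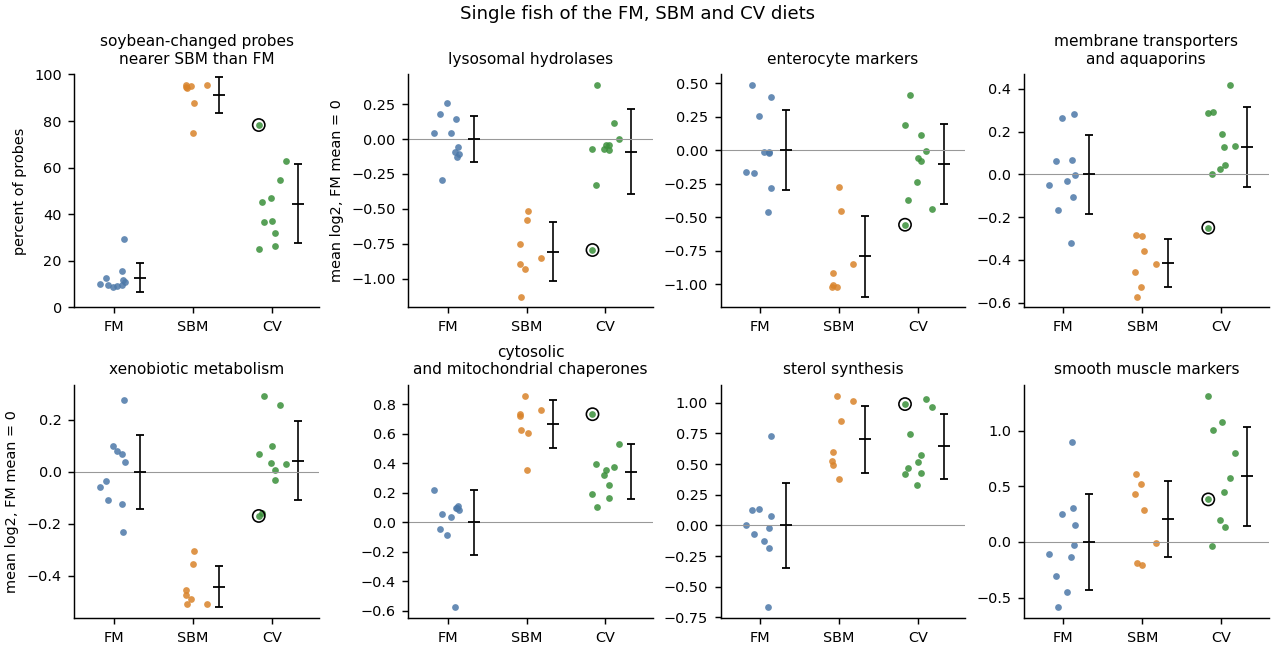
Single fish of the FM, SBM and CV diets (horizontal axis), with CV fish 7 circled. The first panel gives the percentage of the 2690 soybean probes on which a fish lay nearer to the SBM mean than to the FM mean, and the others the mean of a gene list as log2 intensity relative to the FM mean. CV fish ranged from 25.1% to 78.3% in the first panel, and all 10 lay above the SBM fish in the transporter and xenobiotic panels.

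The CV fish differed among themselves. On 25.1% of the 2690 soybean probes CV fish 8 lay nearer to the SBM mean than to the FM mean, and the CV median lay between fish 9 (37.0%) and fish 5 (45.2%). CV fish 7 was the highest at 78.3%, followed by fish 3 at 63.0% and fish 1 at 54.5%. The FM fish ranged from 8.59% to 29.5% and the SBM fish from 74.8% (fish 5) to 95.6%, and since these fish set the means they lie nearer to their own. CV fish 7, the fish with the histology sum of 7, thus lay within the SBM range over all these probes. On the lowered probes alone it had 61.5%, below every SBM fish (75.9% to 96.2%). The share differed between probes that soybean meal raised and lowered. It was 88.9% of the raised and 61.5% of the lowered probes in CV fish 7, 78% and 39.1% in fish 3, 76.2% and 20.1% in fish 1, and 54.5% and 9.23% in fish 9. In CV fish 2 the shares were close, at 32.3% and 31.2%. Of the lowered probes the FM fish had between 3.27% and 36.7% nearer to SBM, a range that held fish 1 and 9. Of the raised probes they had between 2.0% and 43.2%. These shares were taken under quantile normalization only, where the median log2 FC of all probes between CV and FM was 0.17. They were not tried with other scalings, on which the raised and lowered shares that moved back depended. Without CV fish 7 there were 1522 DE probes between CV and SBM, and 1160 soybean probes moved back.

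The lists varied in the same fish to different extents. The mean of the 50 lysosomal probes, with the FM mean set to 0, lay between −1.13 and −0.52 in SBM (median −0.85) and between −0.80 and 0.39 in CV (median −0.06), with CV fish 7 the lowest. The transporter list lay between −0.57 and −0.28 in SBM and between −0.25 and 0.42 in CV, and the xenobiotic list between −0.51 and −0.31 in SBM and between −0.17 and 0.29 in CV. For both no CV fish overlapped with SBM. The chaperone list lay between 0.35 and 0.86 in SBM (median 0.72) and between 0.11 and 0.73 in CV (median 0.34), so the diets overlapped.

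Of the probes that soybean meal did not change, 502 were DE between CV and FM only and 83 were DE between CV and both other diets in the same direction. CV against FM had 1278 calls in all (10.6%), 1205 higher (9.99%) and 73 lower (0.605%). This predominance of higher calls depended on the scaling. The share of higher calls was 94.3%, but 72.7% in the deposited values, 43.8% with scaling to the 75th percentile and 42.9% with each diet centred. All calls numbered 634, 575 and 548 in the same order, and the probes DE between CV and FM only 163, 111 and 128, of which 121, 38 and 58 were among the 502. The number of probes off both diets was 24, 28 and 21. Under quantile normalization it fell from 83 to 45 without CV fish 1, 46 without SBM fish 1, 51 without SBM fish 5 and 53 without SBM fish 7. Only 5 probes were off both under quantile normalization and under all 6 other ways, namely MYL9, GLNA, DCTN2 and 2 probes without a gene name.

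Thioredoxin-interacting protein (TXNIP), which restrains glucose uptake and binds thioredoxin, was above both diets with 2 probes. The brighter probe ranged from 13.78 to 14.76 in FM (median 14.40), from 13.51 to 14.51 in SBM (median 13.98) and from 14.04 to 15.70 in CV (median 15.16). Of 10 CV fish 8 lay above every SBM fish and 7 above every FM fish, and CV fish 7 was the lowest. The log2 FC was 1.02 (SE 0.18) over SBM and 0.69 (SE 0.17) over FM, and for the other probe 1.29 (SE 0.24) and 1.07 (SE 0.21).

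Zymogen granule protein 16 (ZG16), a lectin-like protein secreted by goblet cells in mammals, lay between 3.33 and 4.65 in FM (median 4.16), between 3.34 and 4.13 in SBM (median 3.8) and between 4.36 and 5.54 in CV (median 5.03). All 10 CV fish were above the SBM fish and 7 above every FM fish, with a log2 FC of 1.15 (SE 0.25) over SBM and 0.88 (SE 0.22) over FM. The FM and SBM values of ZG16 lay at the low end of the log2 intensities, and its call against FM was lost with normexp background correction. Glutamine synthetase (GLNA), which makes glutamine from glutamate and ammonia, was 0.89 (SE 0.25) above SBM and 0.78 (SE 0.22) above FM, but its call against SBM was lost with 3 or 2 diets in the model, and its other probe was not DE in CV against either diet. Complement C1QB, which starts the classical pathway, was 0.81 (SE 0.22) and 0.75 (SE 0.20) above, and its call against FM was lost with each diet centred. Dynactin subunit DCTN2, a part of the dynein motor complex, was the 1 probe below both, by −0.87 (SE 0.30) and −0.61 (SE 0.27), and its call against SBM was lost without any of 10 single fish. The highest FM values of DCTN2 were those of FM fish 4 to 7, at least 11.436, against at most 11.128 in the other FM fish. Its CV values ranged from 9.654 to 11.24, and its fall against FM was not tried without those 4 fish.

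Smooth muscle markers were among the genes above FM in CV. Among all probes with a gene name 591 of 2328 were called between CV and FM (25.4%), 543 higher in CV (23.3%) and 48 lower (2.06%). Of 15 smooth muscle probes 8 were DE above FM in CV and 2 in SBM, with medians of 0.61 and 0.11, while 2 rose and none fell between SBM and CV. The regulatory myosin light chain MYL9 was 0.86 (SE 0.27) above SBM and 0.86 (SE 0.24) above FM, and the call against SBM was lost without SBM fish 5 or 7 or CV fish 4 or 8. Its other 2 probes were not DE in CV against either diet. Filamin FLNA was 0.74 above FM and the intermediate filament protein SYNEM 1.13 above, with neither DE against SBM. The mean of the list overlapped between diets, from −0.59 to 0.90 in FM, from −0.21 to 0.61 in SBM and from −0.04 to 1.31 in CV. Between 2 and 5 of the 15 probes were above FM in CV over the 6 other ways of scaling and filtering. Among arrays of scan day 1 only, 7 of the 15 were above FM in CV, with a median of 0.79. Among those of day 2 it was 0 of 15, with a median of 0.41. The days held 4 and 6 CV fish, and the difference between them was not tested. Of 35 extracellular matrix probes 7 rose and none fell between SBM and CV, a share no larger than the 20.4% of all named probes that were higher. The 7 were 7 again with scaling to the 75th percentile and 3 or 4 under the other 5 ways. Among them were lysyl oxidase LYOX (0.81, SE 0.19), which cross-links collagen, and the collagen chain COGA1 (0.76, SE 0.15).

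**Figure D5:**
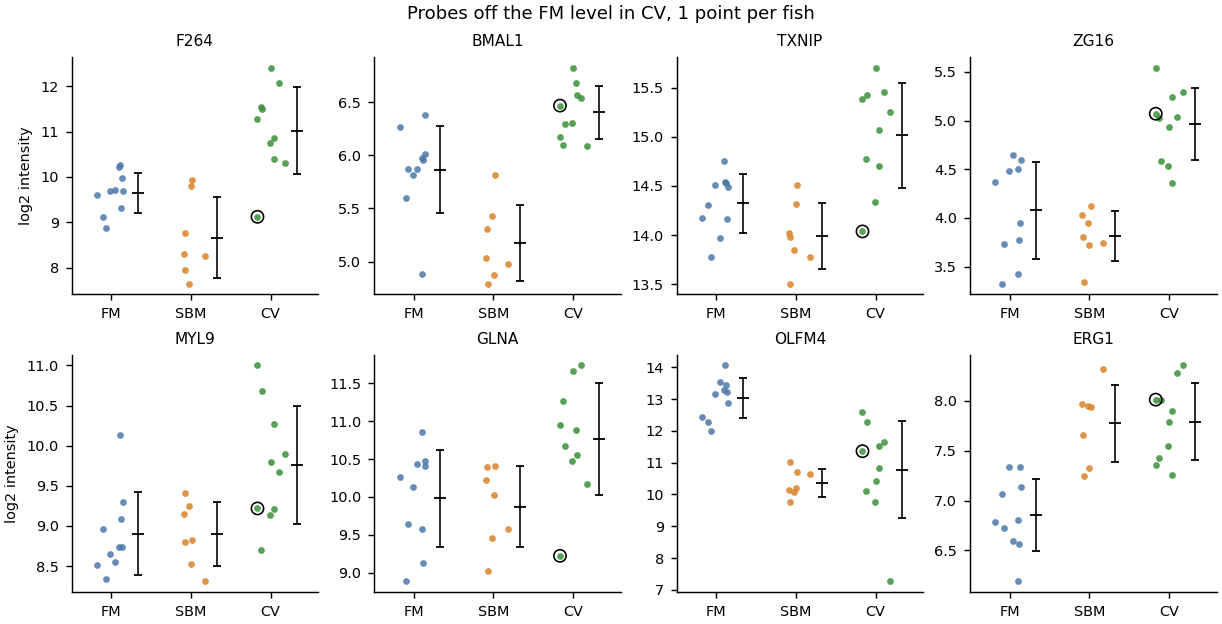
Log2 intensity (vertical axis) of 8 probes in single fish of the FM, SBM and CV diets (horizontal axis), with mean and SD beside the points and CV fish 7 circled. F264, BMAL1, TXNIP, ZG16, MYL9 and GLNA were DE above both FM and SBM in CV, OLFM4 was below FM in both soybean diets and ERG1 above FM in both. For F264 9 of 10 CV fish lay above every FM fish.

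A further 10 probes that soybean meal had changed passed the FM level in CV. The enzyme F264 (6-phosphofructo-2-kinase/fructose-2,6-bisphosphatase), which sets the level of a main activator of glycolysis, ranged from 8.88 to 10.26 in FM (median 9.69), from 7.65 to 9.93 in SBM (median 8.31) and from 9.12 to 12.41 in CV (median 11.07). Of 10 CV fish 9 lay above every FM and every SBM fish, and CV fish 7 was the lowest. The log2 FC was 2.36 (SE 0.36), or 5.14-fold, over SBM (limma adjusted p = 4.7e-06) and 1.38 (SE 0.32) over FM, and both calls were made under all 6 other ways of scaling and filtering.

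BMAL1, a transcription factor of the circadian clock, lay between 4.79 and 5.81 in SBM (median 5.04), between 6.09 and 6.82 in CV (median 6.39) and between 4.89 and 6.38 in FM (median 5.91). No CV fish overlapped with SBM and 5 of 10 were above every FM fish. The log2 FC was 1.23 (SE 0.16) over SBM and 0.54 (SE 0.15) over FM, and the call against FM was made under none of the 6 other ways. The glutathione S-transferase GSTK1 and the retinol dehydrogenase RDHE2 also passed FM, with 0.40 and 0.45, but their calls against FM were made under none of the 6 other ways. Below FM in CV only were dystonin (DYST), a cytoskeletal linker, by −2.16 (SE 0.65), the exosome subunit EXOS2, which takes part in RNA decay, by −1.76 (SE 0.60), and the ubiquitin ligase MARH4 by −1.57 (SE 0.54). The call of EXOS2 was lost without CV fish 1, 2 or 4 and that of MARH4 without CV fish 2 or 4. For each of these probes the highest FM values were those of FM fish 4 to 7. DYST, EXOS2 and MARH4 were at least 14.329, 9.568 and 9.856 there, and at most 12.469, 8.269 and 8.275 in the other FM fish. Their CV values ranged from 9.254 to 12.665, 5.936 to 8.449 and 6.042 to 8.588, mostly within the range of those other FM fish. These falls thus share the same high FM fish, and they were not tried without them.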

How the data were processed

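RNA from the distal intestine of 1 fish was hybridised per one-colour array. The authors deposited the scanner's background-subtracted spot intensities without normalization between arrays, and a table of log2 values. Processing notes name Agilent Feature Extraction and limma, with no version. Spots that were dim, not uniform or not positive and significant were set to missing (1264 to 2237 per CV array), and the rest were put on a log2 scale after quantile normalization. Probes missing on over 15% of the 57 arrays were left out (2776 of 14841), and 4245 values (0.617%) were filled in from the 10 nearest probes. A single limma model (3.58.1, R 4.3.3) covered all 6 diets. CV vs SBM was adjusted on its own, and contrasts with FM by the nested F method. The procedure was tested on simulated data, drawn independently for each probe with no shift between arrays, which does not bear on the scaling. The number of arrays limits the precision.

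Groups, gene lists and named genes were chosen with earlier results of these data known. Named were the probes with the largest rise or fall, the largest of the kept class and of those off both diets, and up to 4 per list. The exceptions are 20 symbols, such as TXNIP, BMAL1 and ERG1, and single list members such as NPC1, FLNA and SYNEM, all chosen after their values were seen. A symbol with several probes is given by that with the lowest p. Every column of the deposited table matched its own array best (lowest Spearman correlation 0.992 across probes, which are not independent), and that table served as an alternative.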

Additional observations from a re-analysis of the deposited data

Results flagged for a closer look

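Values that stood apart from the rest of their diet were sought in 148 groups of fish, over gene lists and single probes, and 7 were found. Chance gives about 1 in 20 such groups. In CV fish 7 lysosomal alpha-mannosidase (MA2B1) was 13.8, GSTP1 9.22 and LECH 8.09, each the lowest of the CV fish by a wide gap. In CV fish 3 OLFM4 was 7.28, the lowest of all 27 fish compared. The mean of the antimicrobial list was highest in CV fish 1, at 0.365 relative to FM. Among SBM fish the sterol and bile acid handling list was lowest in fish 5, at −0.186, and the tryptophan list highest in fish 6, at −0.156. Among the probes too dim to be tested, 7 were measured on at least 9 CV arrays and at most 1 SBM array. The count was 0 for at least 6 SBM arrays and at most 1 CV array. CV arrays had fewer missing spots in general, with a median of 1761.5 against 2068 in SBM.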

How the results depend on the processing

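No log2 FC between CV and SBM of the called probes named for that contrast turned sign under any alternative, and no list median of CV minus SBM did under the 6 other ways of scaling and filtering. Against FM directions were less firm. With 75th percentile scaling the median of CV minus FM turned from 0.18 to −0.17 for T cell markers and from 0.12 to −0.09 for NF-kappa-B and interferon signalling, and the share of higher calls fell from 94.3% to 43.8% in CV vs FM and from 61.3% to 41.3% in SBM vs FM. Of 5965 values of named probes under the alternatives 5269 kept their side of the threshold. Of 162 named results, called or not, 120 kept their side without each single CV or SBM fish. No FM fish was left out, so calls against FM were not tried in this way for FM fish. Probes changed were, for CV vs SBM, SBM vs FM and CV vs FM, 806, 1786 and 343 with normexp background correction, 223, 493 and 81 at a log2 FC of at least 1, 186, 1020 and 192 within scan day 1, and 251, 1006 and 464 within day 2, where fewer fish entered. The day splits were chosen after seeing the data. CV vs FM also gave 575 with 75th percentile scaling, 588 without the spot filter, 569 with dim spots removed after normalization, 634 in the deposited table, 548 with the median taken off and 2271 with no fold limit. For the same 6 settings, raised probes that moved back numbered 511, 555, 550, 529, 498 and 500, kept probes 276, 285, 270, 309, 261 and 937, and probes off both diets 28, 20, 23, 24, 21 and 161. Normexp gave 454 lowered probes moved back, 191 kept and 12 off both. With no fold limit 1517 probes moved back. A limit of 1 left 196 moved back (63 raised, 133 lowered), 32 kept and 3 off both. Day 1 gave 173 (24, 149), 109 and 5, and day 2 216 (24, 192), 223 and 10. Probes off both were 53 without probes missing on any array and 51 with 2 diets in the model. Without CV fish 7 and SBM fish 5 together, also added after seeing the data, 488 raised probes moved back. The cause of these shifts was not tested.

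Leaving out single CV or SBM fish gave 998 (without SBM fish 1) to 1522 (without CV fish 7) probes for CV vs SBM. SBM vs FM gave 2481 to 2899 and CV vs FM 965 to 1463. Between 824 and 1160 moved back, with 212 (without SBM fish 4) to 427 raised and 565 to 772 lowered. Kept probes numbered 436 to 652 and probes off both 45 to 115. Same-numbered CV and SBM fish correlated between −0.151 and 0.242, with 2 of 7 over 0.1, so numbers were not taken to pair CV and SBM fish. Same-numbered FM and SBM fish shared a slide and correlated between 0.078 and 0.251, with 6 of 7 over 0.1. CV and SBM fish of the same slide had 5 of 8 over 0.1. With slide as a block 1285 probes changed in CV vs SBM and 2746 in SBM vs FM. With fish number as a replicate block 1080 probes changed in CV vs SBM and 47 were off both.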

Other observations

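Latrophilin (LPHN), an adhesion receptor, had one of the largest falls in CV against SBM, with a log2 FC of −3.40 (SE 0.80). Its values ranged from 6.45 to 12.08 in FM, from 8.71 to 12.55 in SBM and from 6.27 to 10.09 in CV, so all diets overlapped. A further 14 probes followed it over the 27 fish within diets (r of at least 0.9, given as a description), 6 of them with a gene name, among them F263, CTBP2 and ENV. In all 14 FM fish 6, CV fish 8 and SBM fish 5 were the highest, highest and lowest of their diets, and all 14 were DE lower in CV than SBM.

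The ATP synthase subunit AT5G2 was below 8 in 3 of 10 FM, 0 of 7 SBM and 5 of 10 CV fish. Its log2 FC of −2.87 (SE 1.02) between CV and SBM lost its call without any of 12 single fish.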
